A study of Mus musculus with 12 samples.

Results

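The genes described here are 9 genes of the oligodendrocyte lineage, Pdgfra, Olig1, Olig2, Sox10, Cspg4, Gpr17, Mbp, Mag and Mog, of 17550 gene symbols on the array. They were chosen by name, as every probeset of the main type whose symbol is 1 of the 9, which gave 104 probesets. The study compared the whole brains of newborn female mice lacking the protein kinase KIS, the product of Uhmk1 (genotype KIS -/-, called KIS-ko), with those of wildtype littermates (KIS +/+), 6 brains of each, 1 pair from each of 6 litters. The knockout line had been backcrossed to C57BL6/N, and neither genotype received a treatment. Each brain was frozen, ground and hybridized alone to a Mouse Exon 1.0 ST array, whose probesets are sets of short probes, each set reading 1 exon or a stretch of one. The intensity deposited by the authors is a linear signal per probeset and array. In what follows the value of a gene is log2(signal + 16) averaged over its probesets, and every difference is KIS-ko minus wildtype within litters on that scale. The kinase was lacking from the whole animal, so that the genotype was not limited to a cell type.

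Oligodendrocytes are the cells that wrap axons of the central nervous system in myelin. They arise from dividing precursors that carry the PDGF receptor alpha (Pdgfra) and the NG2 proteoglycan (Cspg4), respond to PDGF, and express the transcription factors Olig1, Olig2 and Sox10. On leaving the cell cycle the cells pass through a stage marked by the receptor Gpr17 and then switch on the genes of the myelin membrane, among them Mbp, Mag and Mog. In the mouse forebrain this last step takes place mostly after birth, and the hindbrain is ahead of it.

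Of the 104 probesets, 101 were kept, the others having a standard deviation of more than 0.4 of the mean in at least 1 genotype. The 3 rejected probesets belonged to Mbp, which lost 2, and Mag, which lost 1, and all 9 genes remained in the test, among 17279 genes tested. Brightness depends on the probe, so the values of different genes are not set against each other. As a guide to background, the 5222 probesets that the table marks as intron controls had a median signal of 114 and a 95th percentile of 713, called the control limit below. Over all genes the median difference was -0.036 and 69.8% of genes were lower in KIS-ko, so that a difference of this size and sign is what an average gene showed. The median signal of an array lay between 460 and 526. Uhmk1 itself lay between 10.89 and 11.07 in wildtype and between 8.62 and 8.98 in KIS-ko brains, a difference of -2.11 ± 0.068 (SE, n = 6 pairs, limma adjusted p = 2.9e-07). Defining markers of neurons were bright (mean list level 12.83 to 12.97 over the arrays).

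None of the 9 genes differed between the genotypes in limma's test adjusted over all genes (adjusted p from 0.685 to 0.984), against 0.00579% of all genes, which is Uhmk1 alone. None passed an unadjusted threshold of 0.05 either, where 6.16% of all genes did. Of the 9, 6 were lower in KIS-ko and 3 higher (3 lower with arrays centred on their medians, 4 with arrays quantile-normalized again), with a median difference of -0.030, and 4 of the 9 lay below the median gene. The wildtype and KIS-ko arrays overlapped in all 9 genes, while 0.208% of all genes had groups that did not overlap. Standard errors lay between 0.049 and 0.068, and the 95% confidence intervals of the differences reached from -0.26 (lower bound of Gpr17) to 0.22 (upper bound of Mog). Because whole brain was measured, fewer cells of the lineage and less RNA per cell cannot be told apart.

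**Figure D1:**
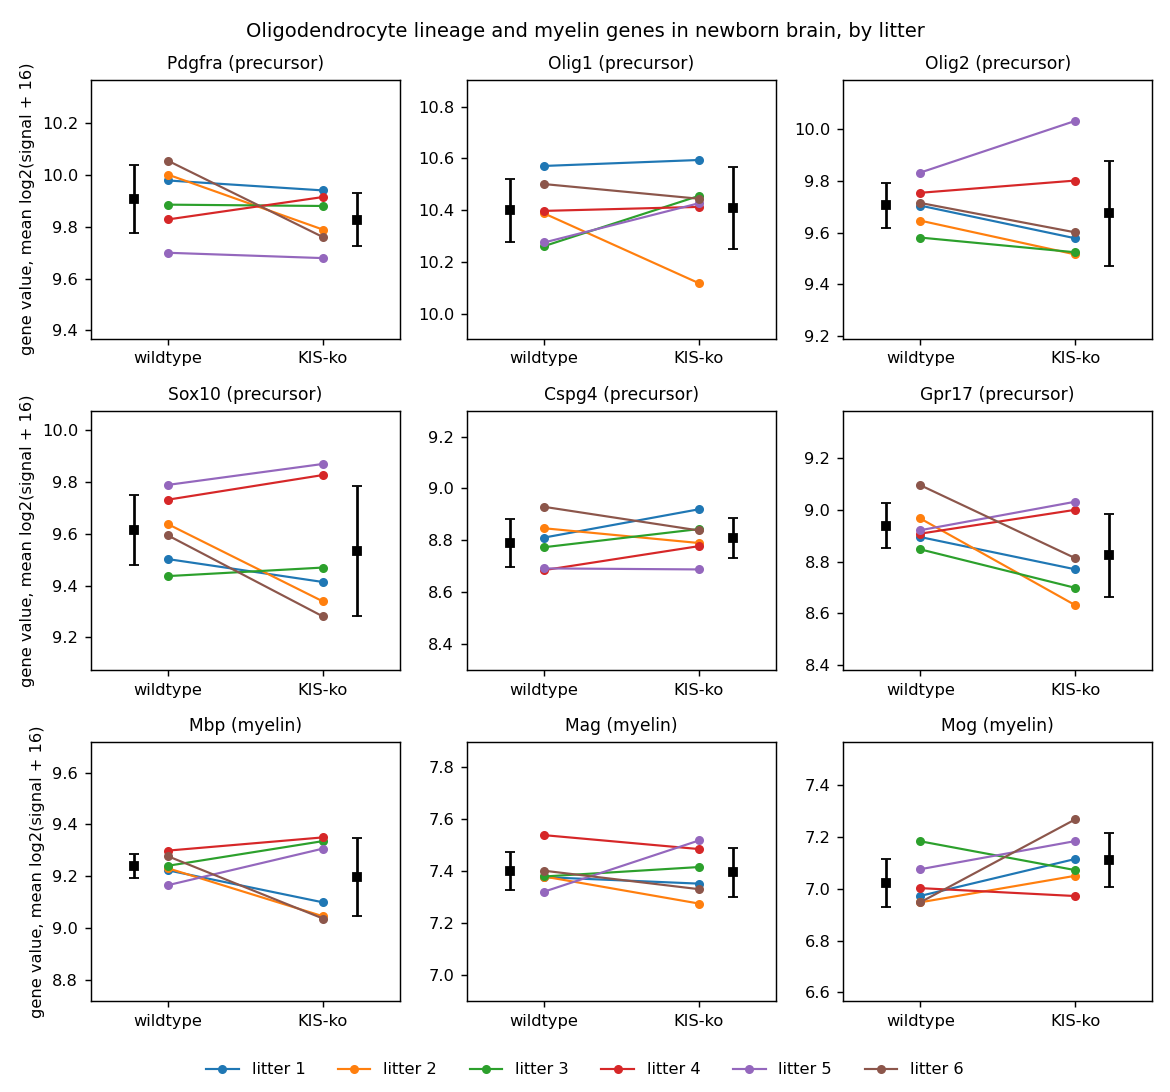
Value of each gene (mean log2(signal + 16), vertical axes of equal span) in wildtype and KIS-ko brain, with 1 line per litter and the mean ± SD of the 6 arrays of each genotype as black squares. Every gene has litters in which it rises and litters in which it falls, and for Mbp the wildtype arrays (SD 0.046) lie closer together than the KIS-ko arrays (SD 0.150).

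Among the precursor genes the receptor and the proteoglycan were examined first. Pdgfra, the receptor through which PDGF keeps precursors dividing (chromosome 5, 75558273 to 75594162 in the table's positions, plus strand), had 27 probesets, of which 16 were brighter than the control limit. Its value was 9.70 at the lowest, 9.93 at the median and 10.05 at the highest in wildtype, and 9.68, 9.83 and 9.94 in KIS-ko. The KIS-ko arrays thus lay inside the wildtype range except for the lowest, that of litter 5, whose wildtype littermate was the lowest of its own group. The difference was -0.081 ± 0.059 (SE, limma adjusted p = 0.690), with KIS-ko lower in 5 of 6 litters and in 25 of 27 probesets, which share the same arrays. With arrays centred on their medians it was -0.025, and against the median gene of each pair KIS-ko was lower in 3 of 6 litters. Cspg4, the NG2 proteoglycan, which pericytes also carry (chromosome 9, 56713010 to 56746669, plus strand), had 3 of 12 probesets above that limit. It ranged from 8.68 over a median of 8.79 to 8.93 in wildtype and from 8.69 over 8.81 to 8.92 in KIS-ko, nearly the same span. Its difference was 0.020 ± 0.049 (SE, limma adjusted p = 0.882), with 3 litters each way, and 0.076 with centred arrays.

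The 3 transcription factors followed. Olig1 and Olig2 are neighbouring genes for related basic helix-loop-helix proteins, Olig2 being required for the specification of the lineage, and Sox10 is an HMG box factor that activates myelin genes. Olig1 (chromosome 16, 91270044 to 91271929, plus strand) had 7 of 8 probesets above the control limit. Its value was 10.26, 10.39 and 10.57 (lowest, median, highest) in wildtype and 10.12, 10.44 and 10.59 in KIS-ko, and the difference was 0.0096 ± 0.063 (SE, limma adjusted p = 0.957), or 0.065 with centred arrays. Within litters it ran from -0.27 in litter 2 to 0.19 in litter 3.

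Olig2 (chromosome 16, 91225819 to 91228748, plus strand), with 6 of 8 probesets above the control limit, was at 9.58, 9.71 and 9.83 in wildtype and at 9.52, 9.59 and 10.03 in KIS-ko. The highest KIS-ko array, that of litter 5, stood above every wildtype array, while 4 of the 6 KIS-ko arrays lay below the wildtype median. The difference was -0.030 ± 0.056 (SE, limma adjusted p = 0.845), and its sign turned when arrays were centred on their medians (0.026). Sox10 (chromosome 15, 78985423 to 78994882, minus strand) had 3 of 8 probesets above the control limit. It was at 9.44, 9.62 and 9.79 in wildtype and at 9.28, 9.44 and 9.87 in KIS-ko, so that the KIS-ko arrays reached beyond the wildtype range on both sides. All 8 probesets were lower on average, but only 3 of 6 litters were, and the difference was -0.082 ± 0.068 (SE, limma adjusted p = 0.704), or -0.026 with centred arrays.

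The 250 bases upstream of the start of Pdgfra and of Olig2 are shown because the deviations of these genes ran in opposite directions over the arrays, as described further on, and because both are in the table of RefSeq promoters (assembly GRCm38.p6), which listed 5 of the 9 genes. They lie at chr5:75152001-75152250 and chr16:91225300-91225549, both on the plus strand, in positions of that assembly and not of the array's table. Capitals mark matches to the E-box CANNTG, the letters that basic helix-loop-helix proteins such as Olig2 bind, or to the SOX motif ACAAAG or ACAATG, on either strand.
Pdgfra: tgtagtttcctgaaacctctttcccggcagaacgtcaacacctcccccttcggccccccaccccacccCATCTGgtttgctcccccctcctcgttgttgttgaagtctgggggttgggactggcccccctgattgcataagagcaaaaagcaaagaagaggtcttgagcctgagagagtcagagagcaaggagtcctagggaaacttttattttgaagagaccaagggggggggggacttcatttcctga
Olig2: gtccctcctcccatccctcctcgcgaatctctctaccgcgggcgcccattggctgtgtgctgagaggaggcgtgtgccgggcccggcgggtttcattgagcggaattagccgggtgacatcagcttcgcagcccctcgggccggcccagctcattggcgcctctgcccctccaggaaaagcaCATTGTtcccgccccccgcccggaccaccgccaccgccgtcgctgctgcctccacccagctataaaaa
The Pdgfra window held 1 E-box and no SOX motif (54.4% G and C), and the Olig2 window 1 SOX motif and no E-box (66.8% G and C). Of 32851 promoter windows of the same length, 66.2% held an E-box and 25.2% a SOX motif, and their median G and C content was 52.4%. These are matches of letters only.

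Gpr17, a receptor of cells between precursor and myelinating oligodendrocyte (chromosome 18, 32103835 to 32109271), had 7 probesets, of which 1 was above the control limit. Its value was 8.85, 8.91 and 9.09 in wildtype and 8.63, 8.79 and 9.03 in KIS-ko, lower in 4 of 6 litters, and the difference of -0.11 ± 0.067 (SE, limma adjusted p = 0.685) was the lowest of the 9 genes. It was -0.059 with centred arrays. The rank depended on the processing. With only probesets of a relative standard deviation up to 0.2, Gpr17 was at -0.023, Sox10 at -0.11 and Pdgfra at -0.090. By the weighted ratio of the paper's methods they were at -0.053, -0.068 and -0.067. The table places 5 of the 7 Gpr17 probesets on the minus strand and 2 on the plus strand under the same symbol. Whether the 2 on the plus strand read Gpr17 or an overlapping gene is not known from the table, and they are part of the gene value here and in the correlations. All 5 on the minus strand were lower in KIS-ko, by log2 differences from -0.27 to -0.16, whereas the 2 on the plus strand were at 0.0049 and 0.20. On the minus strand alone, a choice made after the values were seen, the gene was at 8.78, 8.90 and 9.18 in wildtype and at 8.54, 8.64 and 9.01 in KIS-ko. The difference was then -0.20 ± 0.088 (SE, limma adjusted p = 0.685, the unadjusted threshold of 0.05 being passed), with KIS-ko still lower in 4 of 6 litters.

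The myelin genes were set against the same limit, which compares each probeset with the intron controls and does not rank the genes by level. Of the 70 probesets of the 6 precursor genes, 36 were above the control limit, and of the 31 of the myelin genes 6 were, all of them in Mbp, against 44.6% of all probesets kept. Mag, a glycoprotein of the myelin sheath next to the axon (chromosome 7, 31684559 to 31699340, minus strand), had none of 12 probesets above the control limit and 8 above the control median. Its value was 7.32, 7.38 and 7.54 in wildtype and 7.27, 7.38 and 7.52 in KIS-ko, a difference of -0.0034 ± 0.053 (SE, limma adjusted p = 0.984) that turned to 0.052 with centred arrays. Mog, a protein of the outermost myelin lamella and a late marker of the lineage (chromosome 17, 37147900 to 37160140, minus strand), had none of 6 probesets above the control limit and 3 above the control median. It was at 6.95, 6.99 and 7.18 in wildtype and at 6.97, 7.09 and 7.27 in KIS-ko. The difference of 0.089 ± 0.060 (SE, limma adjusted p = 0.686) was the highest of the 9 genes, and it was 0.14 with centred arrays. This rank too depended on the processing. With only probesets of a relative standard deviation up to 0.2, Mog was at 0.065 and Mag at 0.092. With the median over probesets Mog was at 0.050 and Olig2 at 0.064.

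Mbp encodes myelin basic protein, which compacts the sheath (chromosome 18, 82670119 to 82754935, plus strand). Its value was 9.17, 9.24 and 9.30 in wildtype and 9.04, 9.20 and 9.35 in KIS-ko, with 3 litters each way. The difference was -0.044 ± 0.062 (SE, limma adjusted p = 0.795), and it turned to 0.012 when arrays were centred on their medians. The KIS-ko arrays surrounded the wildtype arrays on both sides, with an SD of 0.150 against 0.046. The SD was the larger in KIS-ko in 7 of the 9 genes, 2.34 times for Olig2, and in 56.7% of all genes, so that this count lies on the side most genes take. The difference in spread was not tested.

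Mbp has a large transcription unit, Golli, whose first exons lie far upstream, and a shorter classic unit inside its 3' end that gives the proteins of myelin. Golli transcripts also use some classic exons, so only the upstream probesets belong to Golli alone. Of the 15 Mbp probesets, 3 started more than 40 kb before the end of the last one and were taken as Golli, and 12 within that distance were taken as classic, a split by position and not by annotation. The Golli probesets started 84.8, 84.8 and 63.5 kb before the end, with mean signals of 245, 89.9 and 578, and none was above the control limit. The classic probesets lay between 31.2 and 1.3 kb, with 10 of 12 kept, and 6 of the 10 were above that limit. This count depends on the split, since a split at 30000 bases would place the 3 bright probesets at 31.2, 30.9 and 30.6 kb (mean signals 798, 1413 and 781) with Golli and leave 3 in the classic part. The brightest, at 12.7 kb, had a mean signal of 2584, followed by those at 1.3 kb (1988), 23.7 kb (1699) and 30.9 kb (1413).

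**Figure D2:**
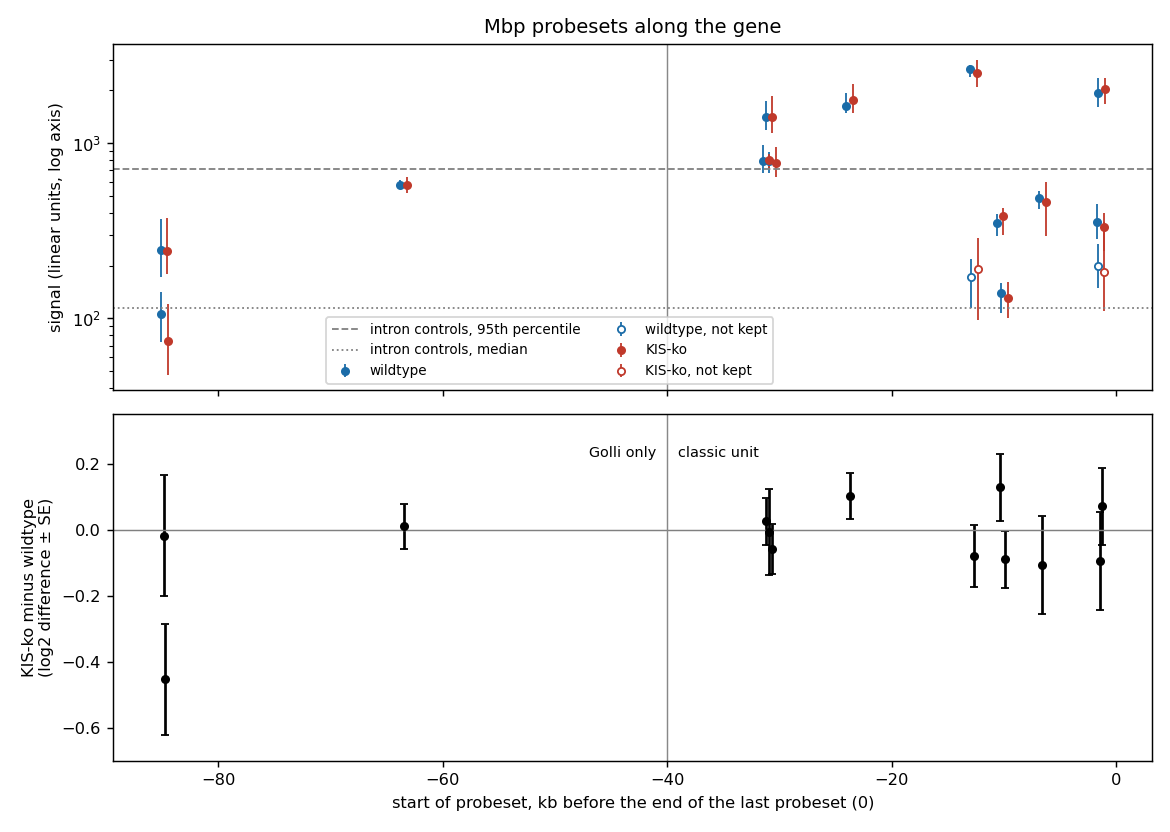
Mbp probesets by distance from the 3' end of the gene (kb, horizontal axis). Above, the mean linear signal of the 6 arrays of each genotype on a log axis with bars from the lowest to the highest array, and below, the log2 difference between KIS-ko and wildtype ± SE for the 13 probesets kept. The 6 probesets above the upper dashed line (signal 713) are all in the classic unit as split at 40 kb, and no difference passed the adjusted test.

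The classic part was at 9.51, 9.57 and 9.75 (lowest, median, highest) in wildtype and at 9.35, 9.63 and 9.74 in KIS-ko. Its difference within litters was -0.011 ± 0.19 (SD, n = 6, exact sign-flip permutation p = 0.719), with 3 litters each way. The Golli part was at 7.81, 8.01 and 8.25 in wildtype and at 7.61, 7.93 and 8.11 in KIS-ko. It was lower in KIS-ko in 5 of 6 litters, by a mean log2 difference of -0.15 ± 0.30 (SD, n = 6, exact permutation p = 0.219). Classic minus Golli changed by 0.14 ± 0.37 (SD, n = 6), from -0.32 in litter 4 to 0.61 in litter 1, above 0 in 4 of 6 litters (exact permutation p = 0.344, two-sided, smallest possible 0.03125). The 2 parts were thus not shown to move apart. The Golli value rests on dim probesets: the difference of -0.45 ± 0.17 (SE, limma adjusted p = 0.751) at the dimmest one, whose mean signal of 89.9 was below the control median, stood beside -0.017 and 0.011 at the other two. Probeset 8 along the gene, the brightest at 12.7 kb, had linear signals from 2385 to 2814 in wildtype and from 2104 to 2996 in KIS-ko, a relative standard deviation of 0.056 against 0.178. The relative standard deviation was the larger in KIS-ko at 10 of the 13 Mbp probesets kept and at 4 of the 6 above the control limit, and the smaller, for example, at 31.2 kb (0.123 in wildtype and 0.068 in KIS-ko).

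Over the 101 probesets of the 9 genes, none passed the test adjusted over all probesets, which 0.00487% of all probesets did. The unadjusted threshold of 0.05 was passed by 6 (5.94%), against 6.63% of all probesets. These were 2 neighbouring probesets of Pdgfra (-0.28 and -0.22), 1 probeset of Gpr17 on each strand (-0.27 and 0.20), 1 of Mag (0.28 at a mean signal of 608) and the dimmest Golli probeset of Mbp.

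The sign of the differences varied between litters. In litters 1 to 6 the number of the 9 genes that were lower in KIS-ko was 6, 8, 4, 2, 2 and 8, and the share of all genes that were lower was 64.7%, 69.1%, 49.0%, 30.3%, 66.1% and 70.4%. The count followed the whole array except in litter 5, where all 9 genes lay above the median gene of that pair (median of the 9 genes 0.11, of all genes -0.052). The mean over the 6 precursor genes changed by -0.046 ± 0.13 (SD over litters, n = 6) and that over the 3 myelin genes by 0.014 ± 0.071. Precursor minus myelin genes was -0.060 ± 0.10, from -0.19 in litter 6 to 0.083 in litter 4 and below 0 in 4 of 6 litters. The change was smaller than its SD between litters, which is not the error of the mean, and it was not tested. Of the 3 myelin genes, Mag and Mog had no probeset above the control limit.

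To see which of the genes varied together, each array was centred on its median and the mean of its genotype was taken away. Sox10 was above its genotype mean on all 4 arrays of litters 4 and 5, by 0.17 to 0.41, and below it on the other 8. Olig2 was above on the same 4 arrays, by 0.11 and 0.21 in wildtype and 0.032 and 0.43 in KIS-ko, and below on the other 8. Pdgfra ran the other way, with its lowest deviations on the arrays of litter 5 (-0.12 in wildtype and -0.079 in KIS-ko). In these 2 litters both littermates shared the direction of Olig2 and Sox10.

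Over 12 arrays, which are not independent because littermates share a litter, the deviations of Olig2 and Sox10 had r = 0.89, those of Olig2 and Gpr17 r = 0.86, those of Mbp and Mag r = 0.83, and those of Pdgfra and Olig2 r = -0.76. These r values are given without a test. Without the 2 arrays farthest from the median of the first gene of each pair, r was 0.71, 0.72, 0.81 and -0.81 in the same order. On the 8 arrays outside litters 4 and 5, which hold the highest values of Olig2 and Sox10, so that the range of both is cut, r was -0.27 for Olig2 and Sox10, -0.18 for Pdgfra and Olig2, 0.75 for Olig2 and Gpr17 and 0.74 for Mbp and Mag.

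The 6 litter means are independent, and all 36 pairs of genes were tested on them by an exact permutation test. Mbp and Mag had r = 0.93 (exact permutation p = 0.0056, adjusted p = 0.067) and rho = 1 (exact permutation p = 0.0028, adjusted 0.1), and r = 0.87 without the 2 litters farthest from the median of Mbp. Olig2 and Gpr17 had r = 0.91 (exact permutation p = 0.011, adjusted 0.1) and rho = 0.89 (exact permutation p = 0.033, adjusted 0.2), and r = 0.94 without 2 litters. Olig2 and Sox10 had r = 0.93 (exact permutation p = 0.024, adjusted 0.119), rho = 0.54 (exact permutation p = 0.297, adjusted 0.604), and r = -0.44 without 2 litters, so that over litters this relation rests on those 2. The lowest p values among negative r were those of Pdgfra. With Mag it had r = -0.84 (exact permutation p = 0.0042, adjusted 0.067) and rho = -0.94 (exact permutation p = 0.017, adjusted 0.15), and r = -0.76 without 2 litters. With Sox10 it had r = -0.94 (exact permutation p = 0.0056, adjusted 0.067) and rho = -0.94 (exact permutation p = 0.017, adjusted 0.15), and r = -0.72 without 2 litters. With Mbp it had r = -0.75 (exact permutation p = 0.017, adjusted 0.119) and rho = -0.94 (exact permutation p = 0.017, adjusted 0.15), and r = -0.84 without 2 litters. With Olig2 it had r = -0.95 (exact permutation p = 0.026, adjusted 0.119) and rho = -0.49 (exact permutation p = 0.356, adjusted 0.604), and r = 0.55 without 2 litters, on which this relation rests too. None of the 36 pairs passed the adjusted test (lowest adjusted p 0.067, exact permutation).

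**Figure D3:**
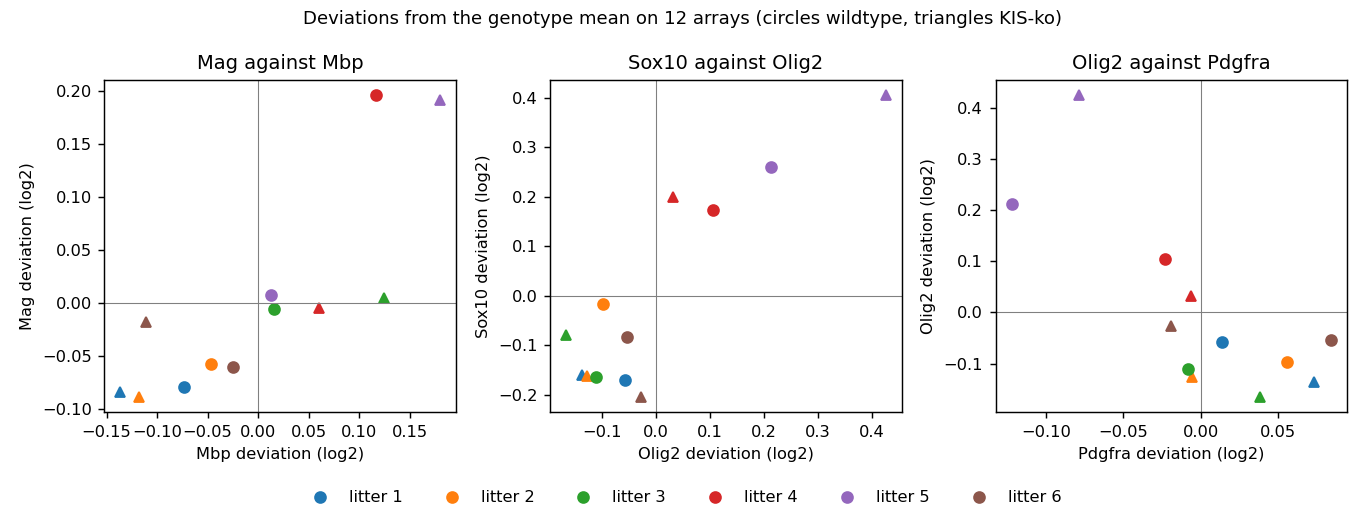
Deviation of a gene from the mean of its genotype after centring of the arrays (log2 units, both axes), for 3 pairs of genes on 12 arrays, with circles for wildtype and triangles for KIS-ko and 1 colour per litter. Mag rises with Mbp (r = 0.83), while Olig2 and Sox10 (r = 0.89) and Pdgfra and Olig2 (r = -0.76) show the arrays of litters 4 and 5 as the ones with Olig2 above 0.

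The first principal component of the same deviations over all 17279 genes held 33.2% of their variance. Its scores were highest on the wildtype and KIS-ko arrays of litter 5 (0.58 and 0.35) and lowest on the KIS-ko array of litter 4 (-0.41). Pdgfra had r = -0.84 and Mog r = 0.84 with it, Olig2 0.61, Mag 0.50, Sox10 0.40, Gpr17 0.30, Mbp 0.23, Olig1 -0.052 and Cspg4 0.010 over 12 arrays. Over all genes the median size of r was 0.477, and 22.8% of genes exceeded 0.7, so that Pdgfra, Mog, Olig2 and Mag lay above that median size and Sox10, Gpr17, Mbp, Olig1 and Cspg4 below it. The part of this component in the relations between genes was not tested.

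The genes whose deviations most resembled those of each of the 9 were sought among the 7048 or 7049 other genes with at least 3 probesets and a mean above the control limit, by Pearson's r over 12 arrays, as a description. Pdgfra was nearest to Slc17a6 (r = 0.98), the vesicular glutamate transporter of many subcortical neurons, and Oxr1 (0.95). Olig2 was nearest to Foxk1 (0.97) and BC017647 (0.97), and Sox10 to Fam65a (0.96) and Thap4 (0.96). Mbp was nearest to Abhd12 (0.91) and Pcdhga9 (0.90), Mag to Cnnm2 (0.95) and Fgd1 (0.94), and Mog to Spinlw1 (0.94) and Cav3 (0.93). Olig1 was nearest to Capn5 (0.94) and Hspa12b (0.93), Gpr17 to Osbpl11 (0.91) and Gm8784 (0.90), and Cspg4 to S100a10 (0.90) and Rhoj (0.88).

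Further genes of the lineage were taken in lists of precursor genes, regulators and myelin genes that do not repeat the 9. Of 18 further precursor genes 16 were tested (not Ptprz1 and Lhfpl3), and 11 were lower and 5 higher in KIS-ko, with none past the adjusted test and a median of -0.019 against -0.036 over all genes. Their highest was Neu4, a sialidase (0.087 ± 0.045, SE, limma adjusted p = 0.685), which was higher in all 6 litters. Its mean value of 7.13 was below that of Mag (7.40), which had no probeset above the control limit, so this count rests on dim signal. Another gene of the list was lower in all 6 litters. Of 17 regulators 16 were tested (not Myrf), and 12 were lower and 4 higher, with a median of -0.013. Their lowest was Bmp4, a signal that holds back oligodendrocyte differentiation. It was at 8.59, 8.77 and 8.83 in wildtype and at 8.36, 8.61 and 8.79 in KIS-ko and lower in 6 of 6 litters, a difference of -0.16 ± 0.058 (SE, limma adjusted p = 0.685). The highest was Id4, an inhibitor of basic helix-loop-helix factors (0.059 ± 0.050, SE, limma adjusted p = 0.707).

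All 26 further myelin genes were tested, and 18 were lower and 8 higher, with a median of -0.031 and none past the adjusted test. Their mean values ran from 6.26 to 11.38, so that some of them were dim, as Mag and Mog were. Their lowest was Car2, carbonic anhydrase 2 (-0.16 ± 0.086, SE, limma adjusted p = 0.685), and their highest Gjb1, connexin 32, which Schwann cells also use (0.088 ± 0.057, SE, limma adjusted p = 0.685). The Gjb1 value rests on 2 probesets and a dim mean value of 7.52. In the 3 lists 0 of 58 genes passed the adjusted test and 1, Bmp4, the unadjusted threshold of 0.05, against 6.16% of all genes.

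**Figure D4:**
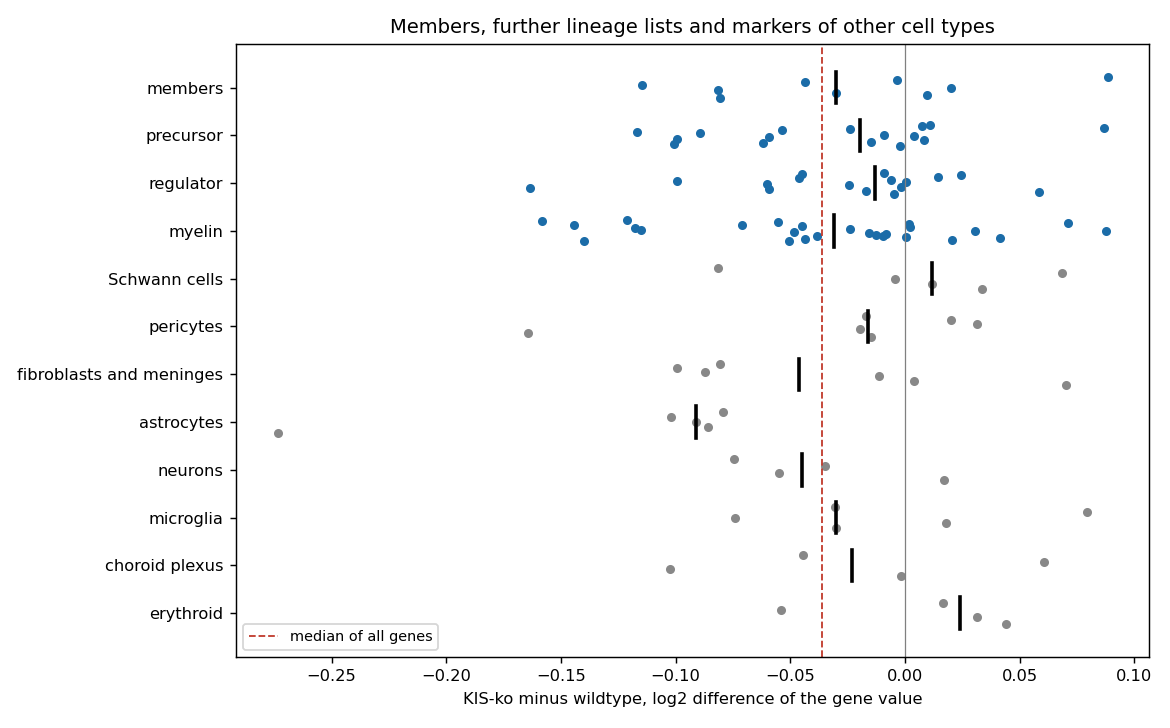
Log2 difference between KIS-ko and wildtype (horizontal axis) for each of the 9 genes, for the genes of 3 further lineage lists (blue) and for marker genes of other cell types (grey), with the median of each list as a black bar and that of all genes as a dashed line. No gene shown passed the adjusted test, and the medians of the 4 lineage groups lie between -0.031 and -0.013, right of the median of all genes.

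Several of the 9 genes are shared with other cells of the head, among them Sox10 with Schwann cells, Cspg4 with pericytes and Pdgfra with fibroblasts and meninges. The marker lists of these cells hold those genes themselves, and the counts without them are given as well. Of 7 Schwann cell markers 5 were tested, and 2 were lower and 3 higher (median 0.012, and without Sox10 1 lower and 3 higher, median 0.023), with a mean list level of 8.76 to 8.98 in wildtype and 8.72 to 8.89 in KIS-ko. Prx, which encodes periaxin of Schwann cell myelin, was at 7.68, 7.84 and 7.90 in wildtype and at 7.74, 7.81 and 7.94 in KIS-ko, so that the genotypes overlapped. Of 6 pericyte markers 4 were lower (median -0.016, and without Cspg4 4 of 5, median -0.017; mean list level 9.18 to 9.49 in wildtype and 9.22 to 9.46 in KIS-ko), and Rgs5, the lowest (-0.16 ± 0.066, SE, limma adjusted p = 0.685), passed the unadjusted threshold of 0.05. Of 6 markers of fibroblasts and meninges 4 were lower (median -0.046, and without Pdgfra 3 of 5, median -0.011; list level 9.73 to 9.90 and 9.72 to 9.88). All 5 astrocyte markers were lower (median -0.091, list level 10.35 to 10.59 and 10.22 to 10.49), and Gfap, the lowest (-0.27 ± 0.081, SE, limma adjusted p = 0.685), passed the unadjusted threshold of 0.05. Markers of neurons (3 of 4 lower), microglia (3 of 5), choroid plexus (3 of 4) and erythroid cells (1 of 4) had medians between -0.045 and 0.024. No marker passed the adjusted test, and the part of these cells in the values of the 9 genes was not tested.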

How the data were processed

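Total RNA of 12 newborn brains was hybridized to Mouse Exon 1.0 ST arrays. According to the methods and the processing notes, the authors used the Affymetrix Expression Console, quantile normalization at the exon level and PLIER, and the deposited intensity is the linear signal per probeset. The build that its positions refer to is not given in the sources used here. Of 229581 probesets, the 221417 main ones with a symbol were used, and 15948 that varied by more than 0.4 of their mean (relative standard deviation) within a genotype were left out. The table lists 2 strands for Gpr17.

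Gene values (mean log2(signal + 16)) and probesets were fitted with limma 3.58.1 in R 4.3.3, blocked by litter, and p-values were adjusted (Benjamini-Hochberg, 0.05) over the whole table. The labels place each pair of littermates in 1 litter, which gives the pairing. Litter measures were tested by the exact two-sided sign-flip permutation test (smallest p 0.03125) and correlations of litter means by exact permutation. Pairs of genes, lists and members were chosen with earlier results of these data known. Every one of the 9 genes is named, and from each lineage list the genes of lowest and highest difference. Of the marker lists, Gfap and Rgs5 had the lowest differences of theirs, and Prx was chosen after the values were seen. Some genes of the lists are not reported here singly. The fits were tested on simulated data. The alternatives were no litter block, pseudocounts of 1 and 64, a filter at 0.2 or none, exclusion of dim probesets, arrays centred or normalized again, the median over probesets, probesets matching 1 place, moderation with a trend, other limits for Golli, the methods' weighted ratio, and each litter left out. The minus strand of Gpr17 alone, and Golli with the probeset just upstream of the first classic exon, were added after seeing the data. The number of arrays and signal over background limit the precision. Python 3.11.15, numpy 2.4.6, pandas 2.3.3, scipy 1.17.1 and matplotlib 3.10.9 were used.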

Additional observations from a re-analysis of the deposited data

Results flagged for a closer look

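Among the 22 groups of arrays searched (each of the 9 genes and the Mbp parts in each genotype), 1 held an array far from the others. The wildtype array of litter 4 had a Mag value of 7.54, with the next array at 7.40. The gap was 0.630 of the range of the group, just above Dixon's 95% critical value for 6 values, and chance marks about 1 in 20 such groups. No probeset of Mag was above the control limit. Without litter 4 the difference of Mag between the genotypes was 0.0067 in place of -0.0034.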

How the results depend on the processing

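None of the 9 genes passed the adjusted test under any alternative that gave one. The methods' weighted ratio gave values with no test, and with dim probesets left out Mag and Mog had no value. The number of them lower in KIS-ko, 6 in the values reported, was 3 with arrays centred on their medians and 5 to 7 with 1 litter left out. Pdgfra, Sox10, Cspg4, Gpr17 and Mog kept their direction in every alternative run, but not their size. Pdgfra ran from -0.11 (without litter 4) to -0.025 (centred arrays; -0.038 without litter 6), Sox10 from -0.15 (dim probesets left out) to -0.026 (centred arrays), Gpr17 from -0.27 (dim probesets left out) to -0.023 (filter at 0.2), Cspg4 from 0.0021 (without litter 1) to 0.076 (centred arrays), and Mog from 0.042 (without litter 6) to 0.17 (methods' weighted ratio). Without the replicate block the differences were the same and no call changed (members lower 6, called 0, classic minus Golli 0.14). Classic minus Golli ran from 0.0013 to 0.23 over all alternatives and from 0.050 to 0.23 without 1 litter, with exact permutation p from 0.1875 to 1, and precursor minus myelin genes from -0.11 to -0.029 (-0.089 to -0.033 without 1 litter).

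Differences near 0 changed sign. Olig1 was -0.015 with a filter at 0.2, -0.023 with dim probesets left out, -0.00098 with the median over probesets, and from -0.027 to 0.065 with 1 litter left out (-0.019 without litter 5, the lowest without litter 3). Olig2 was 0.012 with the filter at 0.2, 0.0048 without dim probesets, 0.026 with centred and 0.017 with renormalized arrays, and 0.064 with the median. With 1 litter left out Olig2 stayed below 0, from -0.076 (without litter 5) to -0.0099 (without litter 2). Mbp was 0.014 with the filter at 0.2, 0.0093 without dim probesets, 0.012 with centred arrays, 0.014 with the median and 0.012 with the methods' weighted ratio. With 1 litter left out Mbp stayed below 0, from -0.081 (without litter 5) to -0.0043 (without litter 6). Mag was 0.0025 with a pseudocount of 64, 0.092 with the filter at 0.2, 0.052 with centred and 0.035 with renormalized arrays, 0.062 with the methods' weighted ratio, and from -0.044 to 0.017 with 1 litter left out, above 0 without litter 1 (0.00097), 2, 4 (0.0067) or 6 (0.010). The cause was not tested. Leaving out dim probesets was not run for classic minus Golli, since no Golli probeset was left, nor for precursor minus myelin genes, since Mag and Mog lost all probesets. Signal over background limits Mag, Mog and Golli.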
